A study of Rattus norvegicus with 16 samples.

Results

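The regions described here are stretches of rat chromatin with a called peak of SRF immunoprecipitation that lie away from the start of a gene. A call does not by itself show binding. They are the regions of the authors' SRF consensus whose distance to the nearest transcription start site (TSS) is above 1000 bp. Regions that overlap a peak of either IgG control by at least 1 bp were left out, as were regions within 10000 bp of a snRNA, snoRNA or scaRNA gene. Of 848 consensus regions, 349 lay above 1000 bp. Of these, 33 overlapped an IgG peak and 25 lay near a small RNA gene, which left 291 regions covering 51.3 kb. The regions were chosen by the authors' peak calls in these same libraries and by distance, so the number of libraries with a call is given as a description and was not tested.

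SRF (serum response factor) is a MADS-box transcription factor that binds the CArG box, a short AT-rich element between a pair of Cs and a pair of Gs. It acts with the MRTF coactivators, which sense the state of actin, at many genes of the actin cytoskeleton. With the ternary complex factors, which respond to growth factor signalling and bind an ETS motif beside the CArG box, it acts at immediate early genes such as Egr1 and Fos. In oligodendrocytes, actin filaments are built as processes extend and are taken apart as the myelin membrane wraps.

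SRF was immunoprecipitated from wild-type (WT) primary rat cells with no treatment other than the change of medium, and the recovered DNA was sequenced. Oligodendrocytes (OL) were precursors fixed on day 3 after the switch to differentiation medium, and oligodendrocyte precursor cells (OPC) were fixed while proliferating. For both stages the labels give 6 days of proliferation, which for OL came before the switch. The precursors came from brain by immunopanning, a capture on antibody-coated dishes, so both stages are cultured cells without axons to myelinate. There were 3 SRF libraries from OL (replicates 1, 2 and 4) and 4 from OPC (replicates 1 to 4), and 1 IgG library for each stage. Replicates of a stage were independent preparations, and plates of the same preparation supplied both stages. DNA holds no RNA levels, so the identity of the cells could not be checked against marker genes.

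Depth differed between the libraries. OL replicates 1, 2 and 4 held 12103611, 2394854 and 3363937 tags, against 9054483 to 20303444 tags in the OPC libraries. In the consensus regions OL replicate 2 had 4472 reads and OL replicate 4 had 7206, against 23055 to 34273 in OPC. The fragment length estimated by the peak caller was 296 bp in OL replicate 2 and 72 to 86 bp in the other SRF libraries. Peak numbers followed neither stage nor depth alone, with 436, 47 and 172 peaks in OL replicates 1, 2 and 4 and 432, 232, 383 and 714 in OPC replicates 1 to 4. The IgG libraries were unequal too, with 1551203 tags and 24 peaks in OL against 11308414 tags and 117 peaks in OPC. The exclusion by IgG peaks thus rests mainly on the OPC library.

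The distance rule uses 1 start per gene, and the authors' annotation places 35 of the 291 regions in a promoter. For 28 of them it is a promoter of the nearest gene itself, that is, the start of another transcript, and for 7 it is that of another gene. The name "away from promoters" therefore holds by distance for all 291 regions and by annotation for 256. The promoter-annotated regions included sites called in 6 libraries near Azi2 (an adaptor of the kinase TBK1), Desi2 (a deSUMOylating isopeptidase), Fbxw11 (a substrate receptor of an SCF ubiquitin ligase) and Snx16 (a sorting nexin of endosomes). For the 28 genes whose own promoter held a region, 25 had a promoter in RefSeq's table for the GRCr8 assembly, with 26 promoter sequences from 250 bases before the start to 50 after it. A CArG box on either strand occurred in 1 of the 26, Desi2, and in 548 of all 33469 promoters of the table (1.64%). The ETS-type motif CCGGAAG, on either strand, occurred in 2 of the 26, Azi2 and Kif2c (a kinesin that takes microtubules apart), and in 8.75% of all promoters. The 2 sequences below were picked because they hold a motif and their sites are among the most often called of the set. Both sites lie in a promoter of the gene by the authors' annotation. The RefSeq promoter of Fbxw11, whose site was also called in 6 libraries, holds neither motif. The RefSeq promoter of the gene holds a CArG box for Desi2 and CCGGAAG for Azi2. Capitals mark the motif, which begins 16 bases past the start in Desi2 (chr13:92493739-92494038 of GRCr8, plus strand) and 61 bases before it in Azi2 (chr8:126651018-126651317 of GRCr8, plus strand, where CCGGAAG stands on the other strand). Each sequence holds a single match. Whether this RefSeq start is the one the SRF region lies at was not tested, because the regions are placed in another build, Rnor_6.0. A match is a description of these letters and shows no binding.
Desi2 promoter: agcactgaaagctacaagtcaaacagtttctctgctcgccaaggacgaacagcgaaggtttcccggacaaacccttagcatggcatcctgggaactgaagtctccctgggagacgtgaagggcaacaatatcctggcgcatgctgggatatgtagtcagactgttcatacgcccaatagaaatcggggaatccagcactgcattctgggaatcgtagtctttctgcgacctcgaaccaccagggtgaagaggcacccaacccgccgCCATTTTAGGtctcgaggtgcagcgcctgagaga
Azi2 promoter: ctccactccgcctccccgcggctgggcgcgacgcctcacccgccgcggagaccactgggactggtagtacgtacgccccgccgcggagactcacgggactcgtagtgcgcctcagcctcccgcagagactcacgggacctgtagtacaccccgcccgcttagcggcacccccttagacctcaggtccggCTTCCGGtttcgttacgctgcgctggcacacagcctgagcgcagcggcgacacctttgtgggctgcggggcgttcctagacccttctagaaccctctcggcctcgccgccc

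Most of the 291 regions were intergenic. The annotation gave 180 intergenic regions, 60 in introns, 35 in promoters, 10 at transcription termination sites (TTS) and 6 in exons. By distance, 146 regions lay 1 to 10 kb from the TSS and 145 lay over 10 kb away, with 23 over 100 kb. The intergenic and intronic classes were divided about evenly, with 83 and 97 intergenic and 29 and 31 intronic regions at 1 to 10 kb and over 10 kb. Promoter-annotated regions (23 against 12) and TTS regions (9 against 1) lay mostly at 1 to 10 kb. Upstream of the TSS lay 181 regions, and 110 lay downstream. The regions were short, with a median width of 139 bp (72 to 1171 bp), against 196 bp for the 473 consensus regions within 1 kb of a TSS that met the same exclusions. The nearest gene was protein-coding for 244 regions, a lincRNA for 21 and a miRNA for 13.

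**Figure D1:**
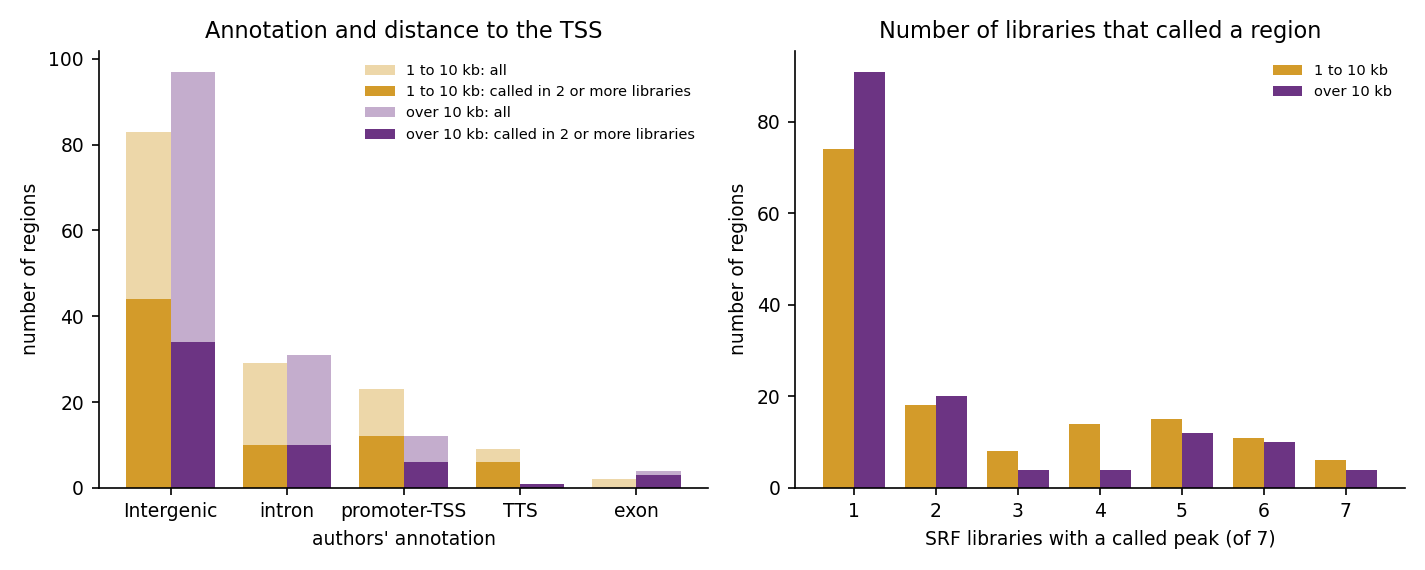
Number of regions by the authors' annotation and distance class (left; pale bars are all regions, solid bars those called in 2 or more SRF libraries) and by the number of SRF libraries with a called peak (right). Intergenic regions are the largest class at both distances, with 83 and 97 regions, and 74 and 91 regions were called in 1 library.

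The share of regions called in several libraries was lower over 10 kb than at 1 to 10 kb, with overlapping intervals. At least 2 of the 7 SRF libraries called 72 of 146 regions at 1 to 10 kb (49.3%, 95% exact binomial interval 41.0 to 57.7%) and 54 of 145 over 10 kb (37.2%, 29.4 to 45.7%). These 126 regions (43.3% of 291, 37.5 to 49.2%) are called reproducible here, and the share within 1 kb of a TSS was 302 of 473 (63.9%, 59.3 to 68.2%). The intervals cover counting error over regions only, and the regions of 1 library share that library. By annotation, 78 of 180 intergenic, 20 of 60 intronic, 18 of 35 promoter-annotated, 7 of 10 TTS and 3 of 6 exonic regions were reproducible. Among intergenic regions the count was 44 of 83 at 1 to 10 kb and 34 of 97 over 10 kb, and among intronic regions it was 10 of 29 and 10 of 31. All 7 libraries called 10 regions, 6 at 1 to 10 kb and 4 over 10 kb.

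The 165 regions with a single call came mainly from 2 libraries. OPC replicate 4 alone accounted for 104 of them and OL replicate 1 for 36, while OPC replicate 2, the deepest library, accounted for 0. Of the 36 regions called only in OL replicate 1, 30 lay over 10 kb from a TSS, against 49 of the 104 called only in OPC replicate 4. Calls in OL alone were made at 40 regions, calls in OPC alone at 148 and calls in both stages at 103. Of the 126 reproducible regions 0 were called in OL alone and 23 in OPC alone, with 3 OL and 4 OPC libraries and 2 of the OL libraries shallow. The pattern was similar within 1 kb of a TSS. There 19 of 473 regions were called in OL alone, 206 in OPC alone and 248 in both stages. Of the 302 reproducible regions there, 0 were called in OL alone and 54 in OPC alone.

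Reads at the regions were also examined in libraries that had not called them, a measure the choice of regions did not use. Read density is given as the fold over the library's mean density along the genome. At regions called in 2 or more other libraries, the median density in the libraries without a call was 8.92, 8.58 and 10.2 in OL replicates 1, 2 and 4, and 10.3, 6.17, 9.72 and 11.04 in OPC replicates 1 to 4. In every library the median at these regions was thus at least 6.17 times the genome mean, with no call there. At regions called in only 1 other library it was lower, at 5.70, 5.39 and 4.65 in OL and 6.60, 3.81, 6.14 and 8.31 in OPC. In the shallow libraries such medians rest on few reads: the median count at regions called once elsewhere was 1 read in OL replicates 2 and 4, and 61.3% and 70.6% of those regions had a density above the genome mean. In the other 5 libraries that percentage was 90.2 to 96.7%. For regions over 10 kb the median at sites called in 2 or more other libraries was 10.6, 10.9 and 11.2 in OL and 10.5, 6.75, 11.2 and 9.44 in OPC. For those at 1 to 10 kb it was 7.37, 7.17 and 9.41 in OL and 9.52, 6.13, 9.30 and 11.2 in OPC. Read density at the same regions in the IgG and input libraries was not analysed here.

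**Figure D2:**
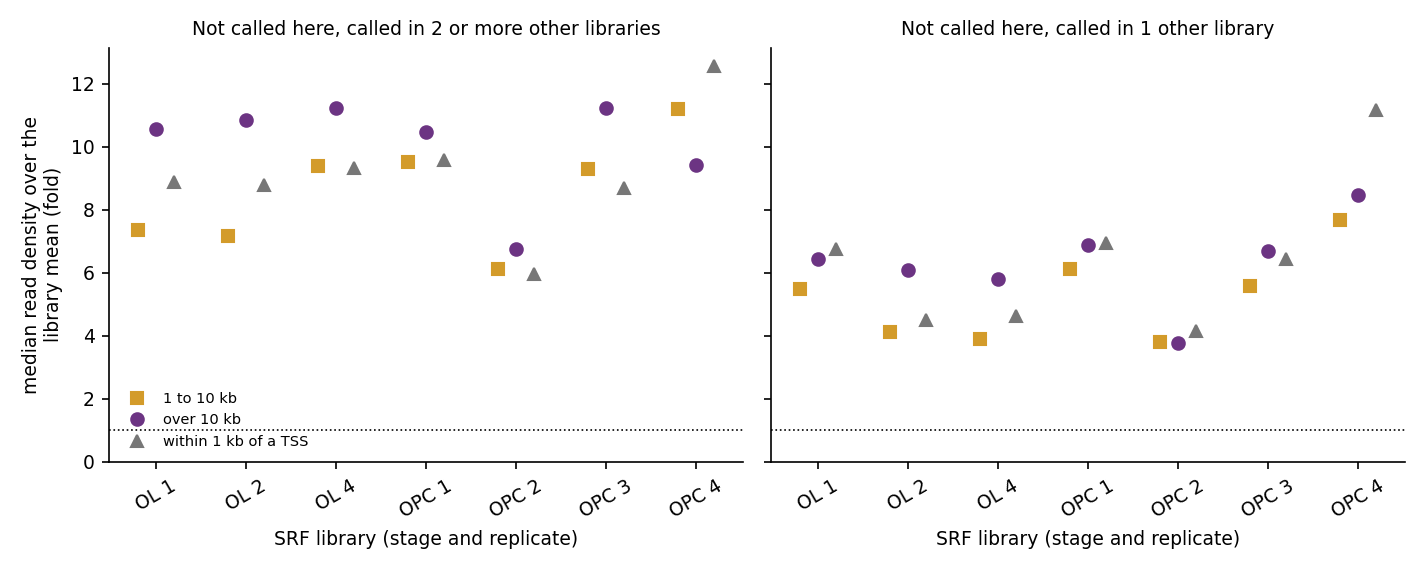
Median read density over the library mean (fold) in each SRF library, over regions that this library did not call and that 2 or more (left) or 1 (right) of the other libraries called, by distance class. The dotted line is the library mean. All medians lie above it, and those for regions called in 2 or more others run from 5.97 to 12.6.

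Regions called in all 7 libraries included the strongest of the set, and at each of the 10 the fitted difference was positive, from 0.12 to 0.98 on the log2 scale (OL over OPC), with 0 passing the test given below. A call in the shallow OL libraries was needed for this class, so its direction is partly fixed by how it was chosen. The farthest was an intergenic region 142351 bp upstream of Zswim6, which encodes a SWIM-type zinc finger protein (chr2:39145661-39146145 of Rnor_6.0). It had 99.5, 158 and 148 normalised reads in OL, against 71.2, 91.5, 52.6 and 71.8 in OPC, where normalised reads are counts scaled by the library's trimmed-mean (TMM) size over the regions. Every OL library was above every OPC library there, by a log2 fold change of 0.86 ± 0.25 (SE), and the adjusted p by edgeR's quasi-likelihood test was 0.0879. Another intergenic region, 103364 bp upstream of LOC100909688, had 53.0, 79.1 and 55.2 normalised reads in OL and 52.6, 56.1, 50.8 and 55.5 in OPC. The 2 stages overlapped there.

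An intronic region 39354 bp downstream of the start of Coro1c was called in all 7 libraries (chr12:48520935-48521273 of Rnor_6.0). Coro1c encodes coronin 1C, a protein that binds actin filaments. It had 30.5, 85.1 and 41.4 normalised reads in OL, against 31.0, 34.4, 21.4 and 23.0 in OPC. The stages overlapped, OL replicate 2 was the highest library on 14 reads, and the adjusted p was 0.283 (edgeR). The other intronic region of this class was 4230 bp downstream of the start of Zbtb7b, a zinc finger transcription factor known for its part in CD4 T cell fate. There the 3 OL libraries, at 54.6, 79.1 and 55.2 normalised reads, were above the 4 OPC libraries, at 40.3, 42.6, 43.7 and 43.8, and the adjusted p was 0.133 (edgeR).

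Other regions called in all 7 libraries lay near early growth response genes. The region 2216 bp upstream of Egr3, an early growth response transcription factor, was called in all 7 libraries and lay 1.5 kb from a second consensus region at the Egr3 promoter. It had 83.5, 134 and 138 normalised reads in OL, against 65.0, 78.8, 52.6 and 62.8 in OPC. The OL libraries were all higher there, with a log2 fold change of 0.81 ± 0.24 (SE) and an adjusted p of 0.0944 (edgeR). A region on chromosome 18 (chr18:27681940-27682378 of Rnor_6.0), nearest by annotation to a 5S rRNA gene 8964 bp away, lay 24.3 kb from the consensus region at the promoter of Egr1. It was called in all 7 libraries and had 50.6, 134 and 104 normalised reads in OL, against 37.9, 54.3, 42.8 and 37.0 in OPC. OL replicate 1 lay within the OPC range there, and the adjusted p was 0.107 (edgeR). Near the immediate early gene Fosb, whose promoter region was called in 5 libraries, lay 3 reproducible regions. One was an exonic region nearest to Rtn2, a reticulon of the endoplasmic reticulum, and lay 13.4 kb from the Fosb region. The other 2 were nearest to Cd3eap, a subunit of RNA polymerase I, and lay 49.9 and 50.5 kb from the Fosb region. How often regions lie this near to other genes was not counted.

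The remaining regions called in all 7 libraries were intergenic. They lay upstream of Fbxl19 (an F-box protein with a CXXC zinc finger), Zscan22 (a SCAN-domain zinc finger protein), the pseudogene AC120246.2 and Cbx8 (a chromobox subunit of Polycomb complex 1). At Fbxl19 there were 300, 237 and 255 normalised reads in OL, against 171, 153, 159 and 166 in OPC, with an adjusted p of 0.107 (edgeR). At AC120246.2 there were 69.8, 134 and 65.6 in OL, against 55.7, 59.8, 46.4 and 52.2 in OPC, with an adjusted p of 0.153 (edgeR). Every OL library was above every OPC library at both. At Cbx8, 12722 bp away, there were 32.1, 66.9 and 38.0 normalised reads in OL and 28.6, 29.0, 25.9 and 19.6 in OPC. All 3 OL libraries were above the OPC libraries, and the adjusted p was 0.206 (edgeR). At Zscan22 there were 100.3, 85.1 and 86.3 normalised reads in OL and 87.5, 62.5, 85.6 and 79.1 in OPC, and the stages overlapped.

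**Figure D3:**
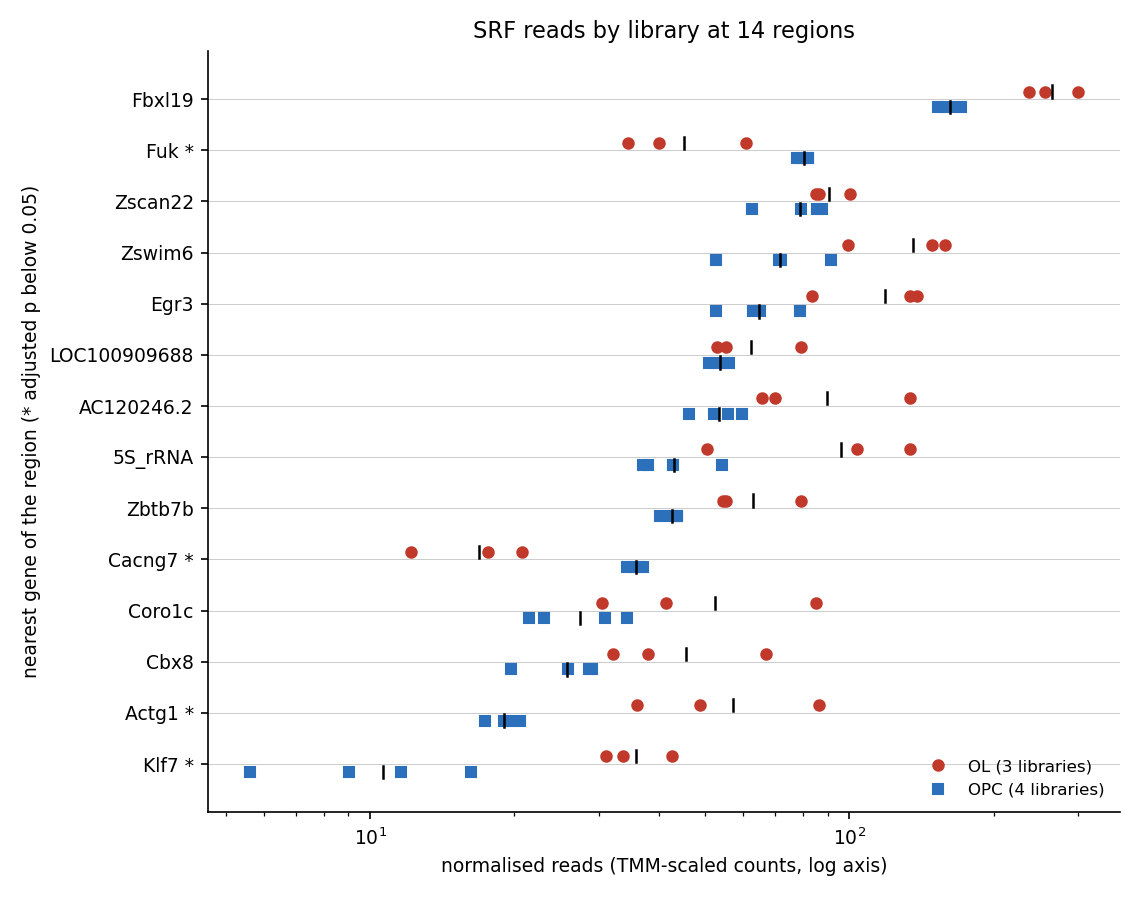
Normalised reads per SRF library (log axis) at the 10 regions called in all 7 libraries and the 4 regions with an adjusted p below 0.05 (marked with an asterisk), named by nearest gene. Red circles are OL libraries and blue squares OPC libraries, and short black bars are the means. Of the 4 marked regions, OL lies above OPC at Klf7 and Actg1 and below it at Fuk and Cacng7. Every OL library also lies above every OPC library at 6 of the 10 regions called in all 7 libraries.

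The genes of the lists drawn up for this tissue held few of the 291 regions. Of 61 immediate early and growth factor response genes, 6 had a region and 5 had a reproducible one (Btg2, Egr3, Homer1, Junb and Nr4a1). Their 5 tested regions had a median log2 fold change of 0.30, against -0.01 over all 557 regions tested, and 0 passed. Of 113 actin cytoskeleton and adhesion genes, 6 had a region (Actg1, Fhl2, Flna, Tpm4, Vcl and Vim), and the region of Actg1 alone was reproducible. Of the 16 genes for SRF and its cofactors, Srf itself had 1 region, called in 1 library. Among 46 myelin and oligodendrocyte differentiation genes, Gal3st1, the sulfotransferase that makes sulfatide, had 1 region with a single call and too few reads to be tested. No region was nearest to any of 36 OPC identity and proliferation genes, and 1, with a single call, was nearest to a marker of another brain cell type, the neuronal Snap25.

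The reproducible immediate early regions other than that of Egr3 had lower levels. Those of Homer1 (1419 bp upstream) and Nr4a1 (6442 bp downstream) lay in a promoter of the gene itself by the authors' annotation. At Btg2, an antiproliferative gene whose region lay 13296 bp upstream, there were 32.1, 79.1 and 20.7 normalised reads in OL, against 20.9, 30.8, 21.4 and 25.2 in OPC. At Homer1, whose short form is an immediate early postsynaptic protein, there were 22.5, 66.9 and 20.7 in OL, against 24.8, 36.2, 18.7 and 16.8 in OPC. At both genes OL replicate 2, with 13 and 11 reads, was the highest library and the other OL libraries lay within or near the OPC range. Junb encodes a subunit of the AP-1 factor. Its region, 2057 bp downstream of the gene's start, is annotated as a termination site and had 36.9, 36.5 and 27.6 in OL and 34.1, 34.4, 24.1 and 38.7 in OPC. At Nr4a1, an immediate early nuclear receptor, there were 12.8, 12.2 and 27.6 in OL and 13.9, 26.3, 7.13 and 19.1 in OPC. The stages overlapped at all 4 genes, with adjusted p of 0.359 or more (edgeR).

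Few regions lay in exons or at termination sites. They are named by the nearest gene start, and which gene holds the exon or termination site was not checked here. The exonic region with the most calls was nearest to Tf, lay 33801 bp downstream of its start and was called in 6 libraries. Tf encodes the iron carrier transferrin, which oligodendrocytes express. There were 22.5, 30.4 and 44.9 normalised reads in OL, against 31.0, 28.1, 32.1 and 28.1 in OPC, with a log2 fold change of -0.02 ± 0.25 (SE). The 2 other reproducible exonic regions, nearest to Rtn2 and to Syt3 (a synaptotagmin), were called in 2 libraries each. At Syt3 there were 8, 0 and 1 reads in OL and 14, 17, 15 and 25 in OPC, and the adjusted p was 0.107 (edgeR). Among the termination site regions, the one nearest to Sf3a3, a splicing factor subunit, lay 6035 bp upstream of its start. It was called in 5 libraries and had 24.1, 42.6 and 34.5 normalised reads in OL and 19.4, 34.4, 24.1 and 19.6 in OPC. The stages overlapped at Tf and at Sf3a3.

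For the comparison of stages, a region needed 10 or more reads in 3 or more libraries. Of the 291 regions, 157 met this filter (80 at 1 to 10 kb and 77 over 10 kb), and 4 of the 157 had an adjusted p below 0.05 by edgeR's quasi-likelihood test, adjusted over all 557 regions tested. Over the 557 regions 12 passed, or 2.15%, so the count of 4 is close to what that share gives. Klf7 and Actg1 were higher in OL (0.359% of the 557 regions passed in this direction) and Fuk and Cacng7 were lower (1.8%). The median log2 fold change of the 157 regions was 0.05, with 82 positive and 75 negative values, against -0.01 over all regions tested. It was 0.01 at 1 to 10 kb and 0.07 over 10 kb. With bulk chromatin, occupancy in fewer cells and lower occupancy per cell cannot be told apart, and the scaling removes a change common to all regions.

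Of these 4, the region with the largest fold lay 39659 bp from the start of Klf7, on its upstream side (chr9:70827466-70827679 of Rnor_6.0). Klf7 encodes a Krüppel-like factor of transcription. The region had 33.7, 42.6 and 31.1 normalised reads in OL, against 16.3, 9.06, 11.6 and 5.61 in OPC. Every OL library was higher, with a log2 fold change of 1.72 ± 0.34 (SE) and an adjusted p of 0.0355 (edgeR), and the site was called in 1 library of each stage. The region 2211 bp upstream of Actg1, which encodes cytoplasmic gamma-actin, lay 1.5 kb from a second consensus region at the Actg1 promoter (chr10:109522913-109523201 of Rnor_6.0). It had 36.1, 48.7 and 86.3 normalised reads in OL, against 19.4, 19.0, 20.5 and 17.4 in OPC. All OL libraries were higher, with a log2 fold change of 1.46 ± 0.30 (SE) and an adjusted p of 0.0364 (edgeR).

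The region 13768 bp upstream of Fuk, the kinase that starts fucose salvage, had 40.1, 60.8 and 34.5 normalised reads in OL, against 82.1, 77.9, 82.0 and 79.7 in OPC (chr19:43324202-43324595 of Rnor_6.0). Every OL library was lower, with a log2 fold change of -0.92 ± 0.20 (SE) and an adjusted p of 0.0444 (edgeR). The termination site region nearest to Cacng7, a regulatory subunit of calcium channels and AMPA receptors, lay 1395 bp upstream of the gene's start. Normalised reads there were 17.7, 12.2 and 20.7 in OL, against 37.2, 34.4, 36.6 and 35.3 in OPC. All OL libraries were lower, on 22, 2 and 6 reads, with a log2 fold change of -1.02 ± 0.22 (SE) and an adjusted p of 0.0368 (edgeR). With the replicate number as a block, since each preparation was divided between the stages, 0 of the 157 regions passed (adjusted p 0.0774 for Actg1, 0.0795 for Klf7, 0.1 for Cacng7 and 0.143 for Fuk, edgeR), and 39 had an unadjusted p below 0.05, as without the block. Each of the 4 passed in 6 or 7 of the 16 or 17 alternatives tried. The count was 0 without OL replicate 4, OPC replicate 2 or OPC replicate 4, 1 without OL replicate 2 or OPC replicate 1, 2 without OPC replicate 3 and 11 without OL replicate 1, where 5.93% of all 523 regions tested passed.

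**Figure D4:**
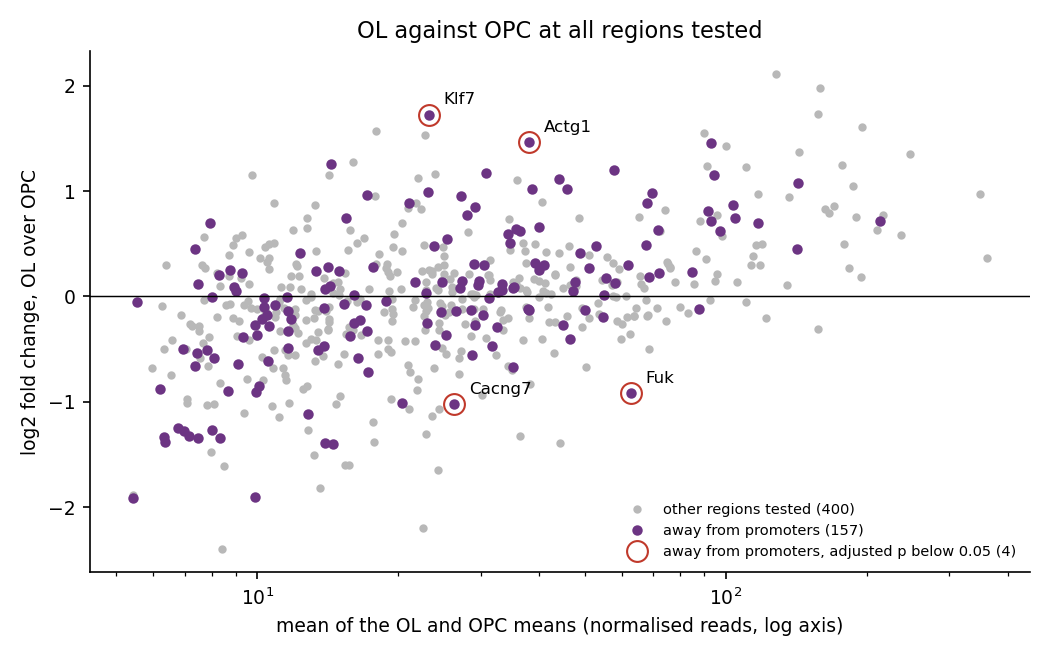
Log2 fold change of OL over OPC against the mean of the stage means in normalised reads (log axis) for all 557 regions tested, with the 157 away from promoters in purple and the 4 of these with an adjusted p below 0.05 (edgeR) circled. Purple points lie on both sides of 0, and the 4 circled regions are 2 above and 2 below it.

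At an unadjusted p below 0.05 there were 39 of the 157 regions, 24 higher and 15 lower in OL, against 21.9% of all regions tested. Libraries of the 2 stages did not overlap, with OL above OPC, at 16 of the 157 regions (7.0% of all regions tested) and with OL below at 19 (13.5%). Next below the threshold were regions near Eef1a1 (elongation factor 1 alpha), Prr14l and the lincRNA AABR07017159.1 on the lower side, with log2 fold changes of -1.40, -1.39 and -1.01 and adjusted p of 0.0659, 0.0699 and 0.0779 (edgeR). At Eef1a1 there were 9, 2 and 2 reads in OL and 28, 17, 22 and 43 in OPC, and OL was below OPC in normalised reads. On the higher side was an intronic region nearest to Ephb1, an ephrin receptor, with an adjusted p of 0.0824 (edgeR). It had 52.2, 219 and 148 normalised reads in OL, against 48.8, 46.2, 53.5 and 34.2 in OPC, and OL replicate 1 lay within the OPC range. DESeq2's Wald test passed 17 of the 157 regions, 14 higher and 3 lower, against 8.8% of all regions tested (6.28% higher and 2.51% lower), and the 4 above were among them. Restricted to reproducible regions, the edgeR fit passed 14 of 117 regions, 9 higher and 5 lower, against 8.14% of all 430 regions in that fit, again with the 4 among them.

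The weight of these regions in each library was compared as shares. They held 26.8, 26.8 and 25.7% of the consensus reads in OL replicates 1, 2 and 4, against 25.1, 25.5, 25.6 and 25.8% in OPC replicates 1 to 4. The means were 26.4 ± 0.658% (SD, n = 3) in OL and 25.5 ± 0.286% (n = 4) in OPC, a difference of 0.930 points with p = 0.114 by a two-sided exact permutation test (0.257 adjusted over 3 shares). With 3 against 4 libraries, the smallest p this test can give is 0.0571. Within the 291 regions, those over 10 kb held 51.2, 59.7 and 56.6% of the reads in OL, against 50.6, 53.3, 52.3 and 48.2% in OPC. The means were 55.8 ± 4.33% and 51.1 ± 2.26%, and the difference of 4.73 points had an exact permutation p of 0.171 (0.257 adjusted). Of the peaks called in each library, 31.4, 27.7 and 24.4% in OL and 24.3, 27.2, 28.5 and 31.4% in OPC met the same distance and exclusion rules by their own position. The means were 27.8 ± 3.51% and 27.8 ± 2.93%, with an exact permutation p of 0.914. None of the 3 differences reached the threshold. Within the pairs of replicate numbers 1, 2 and 4, OL minus OPC was 0.579, 6.34 and 8.46 points for the share over 10 kb, higher in OL in 3 of 3 pairs, with a two-sided exact permutation p of 0.25, the smallest that 3 pairs can give. For the share of consensus reads and the share of peaks OL was higher in 2 of 3 pairs each.

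Some regions had many reads and few calls. A mean of at least 40 normalised reads in OPC with calls in at most 3 libraries was found at 11 regions, a rule set after the values were seen. The other 24 regions with at least 40 normalised reads in OPC were called in more libraries. The 11 were 93 to 205 bp wide (median 127 bp), against a median of 388.5 bp for the 24, and 9 of them lay over 10 kb from a TSS. Summed over the 11, raw reads were 1033, 312 and 410 in OL replicates 1, 2 and 4 and 988, 1191, 955 and 888 in OPC replicates 1 to 4. They were lowest in OL replicates 2 and 4 and highest in OPC replicate 2, as the tags were, over a narrower relative range. At some regions the counts varied little between the deeper libraries. Of the 11, 2 lay over 1 Mb from Ythdc2, an RNA helicase gene. One of these (chr1:180704435-180704533 of Rnor_6.0) had 117, 41 and 71 reads in OL, against 118, 116, 117 and 101 in OPC, though the libraries held 2394854 to 20303444 tags. It lay 431 bp from a consensus region that was left out for overlapping an IgG peak, and of 14 consensus regions nearest to Ythdc2, 12 overlapped one. Within 10 kb, 1 of the 11 regions and 1 of the other 280 had such a neighbour. Another, an intronic region nearest to Ephb1, had 65, 36 and 43 reads in OL and 63, 51, 60 and 61 in OPC. After scaling, the log2 fold change was above 0 at 10 of the 11 (median 0.69), and 0 passed the edgeR test.

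These 11 regions held 14.7, 26.0 and 22.2% of the reads of all 291 regions in OL replicates 1, 2 and 4, against 14.9, 19.9, 16.2 and 10.1% in OPC. Without them the 291 regions' share of consensus reads was 22.1 ± 1.48% in OL and 22.5 ± 0.953% in OPC, and the difference turned to -0.376 points (exact permutation p = 0.686). The share of those reads over 10 kb was then 48.5 ± 2.91% in OL and 45.4 ± 0.817% in OPC, a difference of 3.16 points (exact permutation p = 0.171), and OL was again higher in 3 of 3 pairs. Their part in the difference of any single region was not tested.

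**Figure D5:**
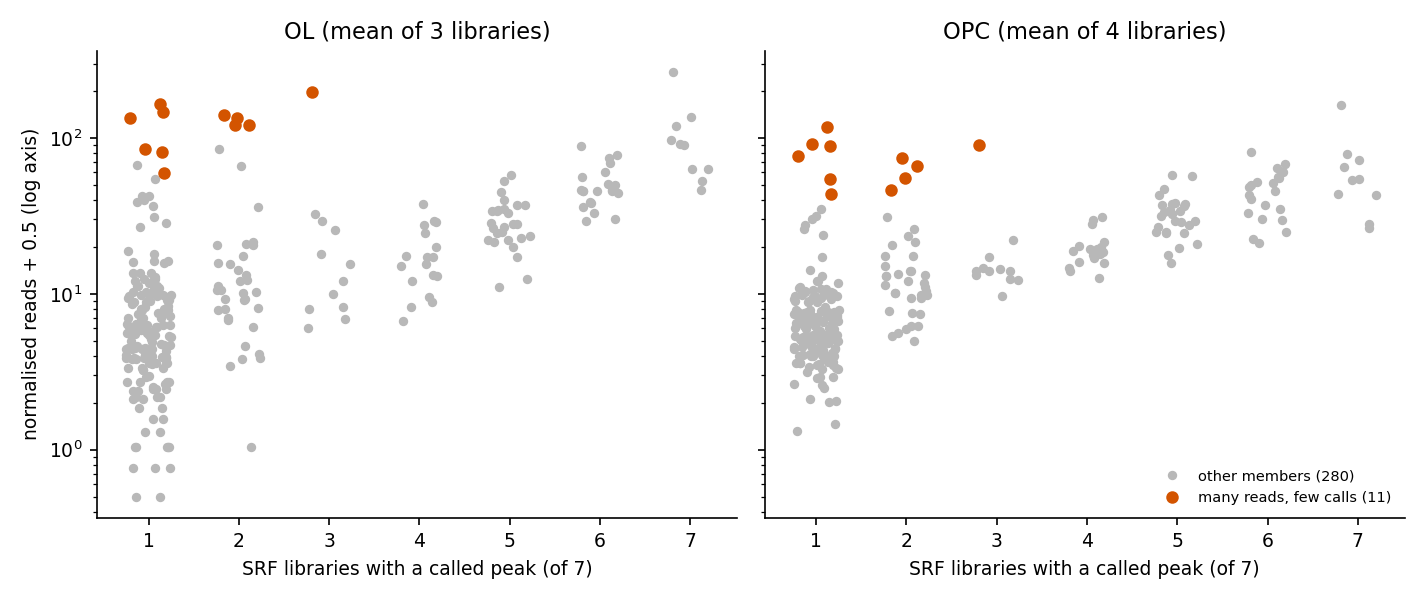
Mean normalised reads plus 0.5 (log axis) against the number of SRF libraries with a called peak for the 291 regions, in OL (left, 3 libraries) and OPC (right, 4 libraries), with points spread sideways for legibility. The median over regions is 5.13 in OL and 6.03 in OPC at 1 call and 90.2 and 53.7 at 7 calls, with wide scatter at 1 and 2 calls. The 11 regions in orange have at least 40 normalised reads in OPC and 1 to 3 calls.

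Few of the regions shared their nearest gene with a region at its promoter. The nearest gene also had a consensus region within 1 kb of its TSS for 10 of the 291, of which 5 were reproducible. Another consensus region lay within 10 kb of 46 of the 291, against 62 of the 473 regions within 1 kb of a TSS. Chromosome 1 held 69 of the 291 regions (23.7%) and 35 of the 126 reproducible ones (27.8%), against 16.1% of the regions within 1 kb of a TSS. Genes with a zinc finger family name (Zfp, Zscan and the like), a group chosen after the values were seen, were nearest to 19 of the 291 (6.53%, 95% exact interval 3.98 to 10.0%) and to 13 of the 126 reproducible regions (10.3%, 5.61 to 17.0%). Within 1 kb of a TSS they were nearest to 10 of 473 regions (2.11%, 1.02 to 3.85%). Of the 13 reproducible ones 9 lay on chromosome 1, so they share a chromosome and in part a gene.

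Near the 1000 bp limit, the closest regions inside the set were those of Wnk1 (1031 bp, called in 5 libraries), Ddx25 (1043 bp, 1 library) and Zdhhc14 (1065 bp, 1 library). Just outside it were Siah3 (996 bp, 1 library), Arc (954 bp, 1 library) and Tfap4 (932 bp, 2 libraries). The 10 kb limit fell between regions of Hnrnpa2b1 (10062 bp), Fbxo46 (10101 bp) and Desi2 (10403 bp) above it and AABR07026984.3 (9945 bp), Polr2f (9890 bp) and Hes7 (9887 bp) below it. Wnk1 had 50.6, 12.2 and 34.5 normalised reads in OL and 40.3, 44.4, 35.7 and 30.9 in OPC, and the other 2 regions just inside 1000 bp had at most 10.7 in any library. The 3 just outside had at most 17.3.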

How the data were processed

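The members, gene lists and tests were chosen with earlier results of these data known. Genome build Rnor_6.0 and the tools BWA, Trim Galore, deepTools, HOMER and MACS2 are named in the submitters' processing notes. How duplicates were handled ahead of MACS is not given in the sources used here. Peaks of each library came from MACS 2.2.7.1, per the file headers. The deposited peak tables give pileup signal, fold enrichment ratio and −log10 p and q, used here only for positions, descriptions and a stricter q. The deposited read counts over 848 regions are whole and not normalized, from featureCounts 2.0.1 per the file headers. The deposited HOMER table supplied the annotation and the distance to the TSS.

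A region was called in a library where it overlapped a peak by at least 1 bp. Genome mean density is tags per the authors' effective genome size of 2000000000. The fit took all regions with 10 or more reads in 3 or more of the 7 SRF libraries (edgeR 4.0.16, R 4.3.3, TMM, quasi-likelihood, Benjamini-Hochberg), with DESeq2 1.42.0 as an alternative. It was also run on simulated counts made from the means of these data and the dispersions of the main fit. Shares were compared by exact permutation tests (scipy 1.17.1). Intervals are exact binomial and cover counting error only.

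Named regions are the 8 most-called reproducible sites per distance class, those past the threshold with the 5 smallest p per direction, the 3 most-called per annotation class, reproducible sites of listed genes and the 3 nearest to each distance limit per side. One region that this rule names is not reported here. Plates of 1 preparation went to both stages, per the labels, so replicate numbers 1, 2 and 4 pair OL with OPC. Deviations of same-numbered libraries from their stage means correlated at 0.09, 0.27 and 0.16, and OL replicate 1 with OPC replicate 4 at 0.28, so the pairing rests on the labels. One planned description, motifs in the regions' own sequence, was not made, as a genome of the files' build was not used here.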

Additional observations from a re-analysis of the deposited data

How the results depend on the processing

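The number of regions that passed between the stages depended on the processing. Against 4 of 157, it was 17 with DESeq2 (8.80% of all regions tested passed), 8 of 291 with no filter on low counts (2.59%), 14 when only reproducible regions were fitted (8.14%), 2 when only regions called in both stages were fitted (0.815%), and 0 when scaled to all tags, without both shallow OL libraries, with the replicate block, or with a replicate block that pairs OL replicate 4 with OPC replicate 3 (the number in that library's file name). DESeq2 size factors in edgeR gave 3 and a filter of 20 reads gave 6, within 1.5 times. Leaving out 1 library at a time gave 0 to 11 (0.201 to 5.93% of all regions tested). Depth limits the OL values, since OL replicates 2 and 4 had a median of 1 and 3 reads at the 291 regions. The median log2 fold change of the regions was -0.30 when scaled to all tags, where that of all regions was -0.35, and stayed between -0.02 and 0.10 under the other alternatives. None of the regions past the threshold or next to it changed direction in any alternative. As mean differences within pairs (a replicate block, chosen after seeing the data), the shares of consensus reads, of reads over 10 kb and of peaks gave 0.958, 5.13 and 0.222 points. The difference in the share of peaks, 0.0102 points, changed sign above 2000 bp (-0.173), with small RNA regions kept (-1.84), with only reproducible regions (-1.14), and lay between -1.78 and 1.72 with 1 library left out. The difference in the share of consensus reads turned to -0.376 points without the 11 regions of many reads and few calls, an alternative chosen after seeing the data. With regions that overlap an IgG peak kept, the differences in the shares of consensus reads and of peaks were 10.7 and 10.6 points (exact permutation p = 0.171 and 0.0571). The causes were not tested. The numbers of regions (256 to 338) and of reproducible regions (94 to 154) stayed within 1.5 times of 291 and 126; without promoter-annotated regions, also chosen after seeing the data, they were 256 and 108.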
